A study of Mus musculus with 10 samples.

Results

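The genes described here are 31 components of the NF-kappaB pathway of TH2 cells, a type of mouse helper T cell that produces IL-4, IL-5 and IL-13. They were chosen by symbol from knowledge of the pathway and matched to the Ensembl IDs of a raw count table of 49671 genes. All 31 were in the table, and all 31 had enough reads to be among the 13699 genes tested. The RNA was that of day 5 cultures started from naive CD4+ T cells of C57BL/6 mice under TH2 conditions. The tested group comprised 7 libraries from second-generation offspring that were bred and reared without UV light and fed a vitamin D-free diet (deficient). The comparison group comprised 3 libraries from mice whose standard chow held vitamin D3 at 400 IU/kg (regular), and every library carries the label WT. The labels name no sex or age and do not say whether a library is 1 mouse or a pool, so each p-value speaks of the spread among these libraries, part of which may be technical.

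NF-kappaB is a family of dimeric transcription factors built from the subunits encoded by Nfkb1, Nfkb2, Rel, Rela and Relb. In the canonical arm, receptor signals pass through TRAF adaptors and the kinase TAK1 to the IKK complex, which marks IkB inhibitors for destruction and frees dimers of Rela, Rel and the processed Nfkb1 product. In the non-canonical arm, the kinase NIK, held low by a complex of TRAF and cIAP proteins, acts through IKKalpha to trim the Nfkb2 precursor, which otherwise retains Relb in the cytoplasm. In helper T cells the pathway follows antigen receptor and co-stimulation signals and is known for its roles in survival and cytokine production. The counts measure transcripts, and neither processing of the precursors nor movement into the nucleus was measured.

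Deficient libraries held between 7029207 and 13433276 counts and regular libraries between 5800698 and 6462146. Batch 1 comprised 5 deficient and 2 regular libraries, and batch 2 comprised 2 deficient and 1 regular. Deficient libraries 5, 6 and 7 stood apart from the other deficient libraries, although library 5 carries the label of batch 1. Across genes, log2 CPM of library 5 correlated at 0.993 to 0.995 with libraries 6 and 7 and at 0.976 to 0.984 with libraries 1 to 4. The T helper markers were present. Cd4 stood at 298 to 396 CPM (counts scaled to the library total) in deficient and 707 to 734 CPM in regular cells. Il13 went the other way, at 168 to 255 CPM in deficient and 61.4 to 92.1 CPM in regular cells. Il4 overlapped, at 9.39 to 21.5 and 14.5 to 15.7 CPM. All 13 markers of the list were detected, and 2 were higher, 8 lower and 3 not past the threshold (edgeR, adjusted p below 0.05). Their sum was 2462 ± 81.6 CPM in deficient libraries (SD, n = 7) and 3185 ± 21.6 CPM in regular libraries (SD, n = 3; two-sided exact permutation p = 0.00833, adjusted over 8 marker lists 0.0222). Markers of CD8 and cytotoxic cells, 10 of 10 detected, summed to 986, 1040, 687, 892, 1958, 1782 and 1490 CPM in deficient libraries 1 to 7 and to 105, 98.8 and 200 CPM in regular libraries 1 to 3 (exact permutation p = 0.0167, adjusted 0.0333). B cell markers, also 10 of 10 detected, summed to 57.6 to 86.2 CPM in deficient libraries 1 to 4, to 306 to 345 CPM in deficient libraries 5 to 7 and to 16.4 to 109 CPM in regular libraries. Of the other lists, deficient and regular sums ran from 5.47 to 18.5 and from 1.6 to 5.26 CPM for NK cells, from 10.8 to 49.2 and from 5.42 to 5.77 CPM for mast cells and basophils, and from 5.53 to 8.5 and from 15.9 to 18 CPM for macrophages. The corresponding ranges were 19.8 to 32.8 and 35.6 to 38.7 CPM for stromal cells. For dendritic cells they were 89.3 to 129 and 191 to 217 CPM. Most of that dendritic sum was Ccr7, which T cells also use. Ccr7 gave 54.8 to 92 CPM in deficient and 178 to 201 CPM in regular libraries. Of the 9 dendritic markers 5 were tested, and 2 were higher and 1 lower in deficient cells (edgeR, adjusted p below 0.05). Their median log2 fold change was 0.81, so the lower sum does not stand for the whole list. Transcripts gave the sex that the labels lack. Xist, an RNA of female cells, was high only in deficient library 1 (657 CPM) and deficient library 3 (733 CPM). Elsewhere it was 0.345 CPM or less. Ddx3y, a Y chromosome gene, was nearly absent from that pair (0.309 and 0 CPM) and ranged from 192 to 307 CPM in all others. By these genes the deficient group held both sexes and the regular group only males. Sex was not a term of the fits.

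The comparison of deficient with regular cells asked which NF-kappaB genes differ in transcript level between the groups. Vitamin D-free diet, rearing without UV light and second-generation breeding go together in the deficient group. Their parts cannot be told apart, and a diet difference here means a difference between these groups. Most members moved modestly and in both directions. Icam1, which encodes an adhesion ligand of leukocyte integrins and is a known NF-kappaB target, was 3.35-fold higher in deficient cells, and Nfkb2 was 1.94-fold higher. Traf5, an adaptor of co-stimulatory TNF receptors, was 2.98-fold higher in regular cells, and Ikbke, an IKK-related kinase, was 1.98-fold higher in regular cells. Of the 31 members, 7 were higher and 16 lower in deficient cells by edgeR's quasi-likelihood test with batch as a term (Benjamini-Hochberg adjusted p below 0.05 over all genes), and 8 did not pass. Over all genes tested 58.0% passed, 29.4% higher and 28.6% lower, so a call by itself was common in these libraries. The median log2 fold change was -0.19 over the members and 0.02 over all genes tested. Changes of at least 2-fold were rare among the members. Of the 31, 1 was higher and 1 lower by that much, against 10.3% and 8.71% of all genes, and the median size of change was 0.38 for the members and 0.46 for all genes on the log2 scale. In 14 members the groups did not overlap in CPM, 7 higher and 7 lower in deficient cells, where 50.8% of all genes had no overlap, 29.4% higher and 21.4% lower. In bulk RNA, fewer cells of a type and less RNA per cell cannot be told apart.

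**Figure D1:**
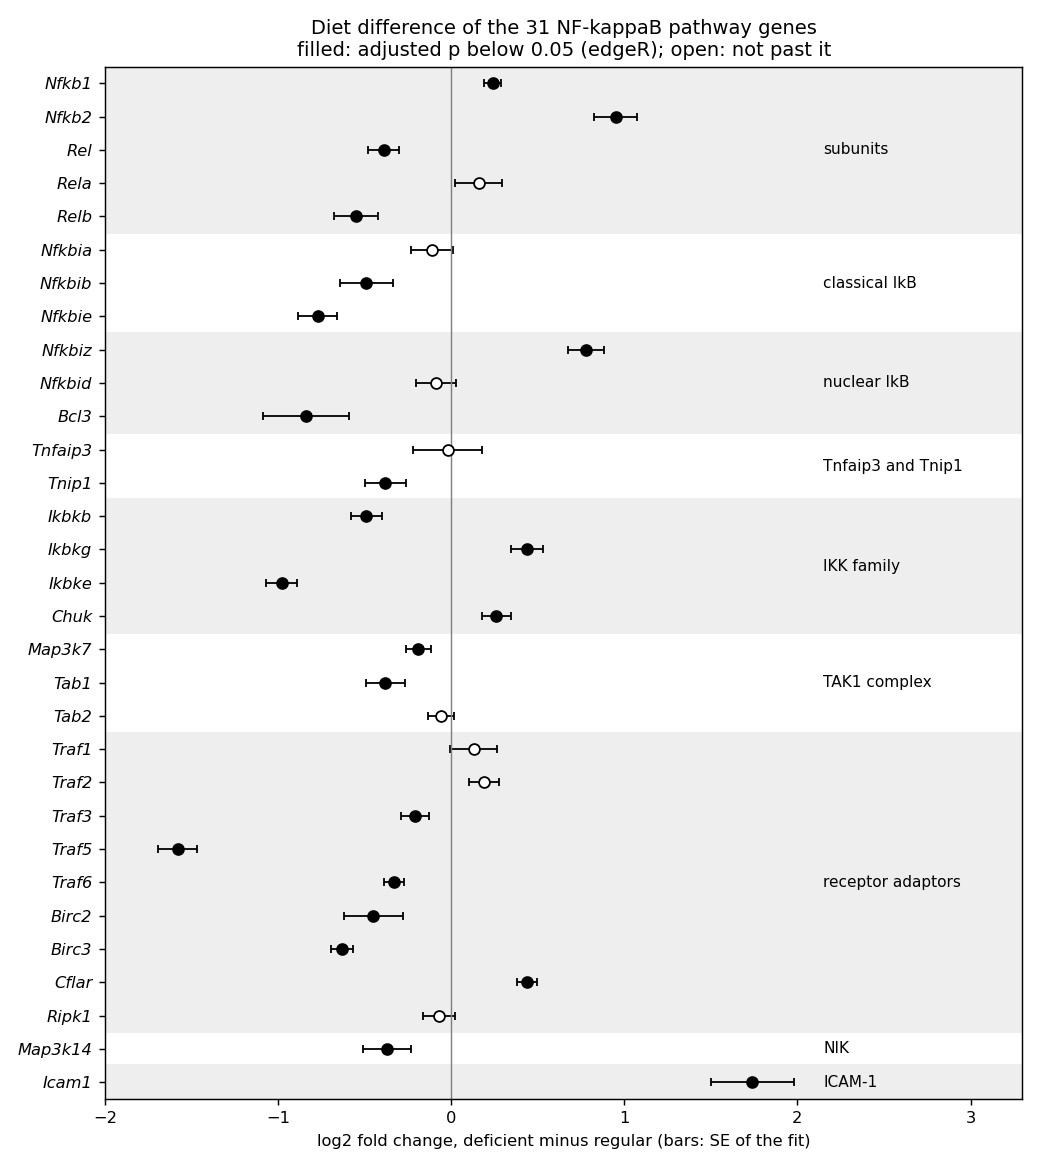
The horizontal axis gives the log2 fold change of each of the 31 genes, deficient minus regular, with the standard error of the fit as bars; genes run down the page by role, filled points passed the adjusted p and open points did not. Icam1 at 1.74 and Traf5 at -1.58 lie at the ends, and most members lie within 1 log2 unit of 0.

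Short stretches of promoter sequence are shown because several members are known to be switched on by NF-kappaB itself, and the stretches let genes that rose, fell or did not pass be read side by side. RefSeq promoter windows (GRCm38.p6, from 250 bases before to 50 after a start) were found for 26 of the 31 members; Nfkb1, Relb, Nfkbiz, Ikbkb and Tab1 had none. The kappaB consensus decamer GGGRNNYYCC (R for A or G, Y for C or T, N for any base) was searched on both strands. Sites that depart from these letters were not searched for. It matched a window of 10 members, 38.5% of the 26, and of 9.55% of all 27018 genes with windows. The stretches below run 5′ to 3′ on the gene's strand, capitals mark matches of the consensus, and each ends at the base before the start except that of Nfkb2, where 30 bases around a match are given.
Nfkb2: gtcacGGGAATTCCCCccctcggggggccg
Rel: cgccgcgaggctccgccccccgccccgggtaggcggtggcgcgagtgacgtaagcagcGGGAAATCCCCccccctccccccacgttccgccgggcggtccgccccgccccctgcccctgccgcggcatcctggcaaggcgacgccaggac
Nfkbia: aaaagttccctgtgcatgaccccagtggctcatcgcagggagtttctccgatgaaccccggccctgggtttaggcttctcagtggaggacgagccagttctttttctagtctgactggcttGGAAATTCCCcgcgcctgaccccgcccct
Nfkbie: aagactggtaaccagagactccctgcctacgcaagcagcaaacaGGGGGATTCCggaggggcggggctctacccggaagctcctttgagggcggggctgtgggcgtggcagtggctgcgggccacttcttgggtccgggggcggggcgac
Tnip1: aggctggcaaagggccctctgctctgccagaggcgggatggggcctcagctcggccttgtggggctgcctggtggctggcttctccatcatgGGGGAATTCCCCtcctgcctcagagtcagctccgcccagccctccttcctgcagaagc
Icam1: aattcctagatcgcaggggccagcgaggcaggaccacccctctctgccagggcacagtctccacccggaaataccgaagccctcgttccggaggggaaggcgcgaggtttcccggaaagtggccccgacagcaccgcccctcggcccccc
Traf5: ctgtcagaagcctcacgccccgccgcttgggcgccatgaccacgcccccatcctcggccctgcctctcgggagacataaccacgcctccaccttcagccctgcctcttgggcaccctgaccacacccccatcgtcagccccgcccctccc
They lie at chr19:46304693-46304722, plus strand (Nfkb2), chr11:23770970-23771119, minus strand (Rel), chr12:55492648-55492797, minus strand (Nfkbia), chr17:45555550-45555699, plus strand (Nfkbie), chr11:54962941-54963090, minus strand (Tnip1), chr9:21015790-21015939, plus strand (Icam1) and chr1:192092600-192092749, minus strand (Traf5). Genes with a match went both ways: Nfkb2 rose, Rel, Nfkbie and Tnip1 fell, and Nfkbia did not pass. Also with a match in their windows were Bcl3, Traf3 and Map3k7, which fell, and Nfkbid and Tnfaip3, which did not pass. Icam1 and Traf5, the members with the largest changes, had no match of these letters in this window, and a match describes letters and not a bound site.

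Among the 5 subunits, both precursor genes rose, Rel and Relb fell and Rela did not pass. Nfkb1 (ENSMUSG00000028163, chromosome 3, 135584655 to 135691547 of GRCm38) encodes the precursor of the p50 subunit. It stood at 684, 659, 662, 651, 652, 649 and 651 CPM in deficient libraries 1 to 7 and at 496, 526 and 555 CPM in regular libraries 1 to 3. Every deficient library lay above every regular one, and the deficient libraries other than the first lay within 649 to 662 CPM. The log2 fold change was 0.24 (SE 0.0499; edgeR, adjusted p = 0.000749); within batch 2 alone it was 0.17 and missed the threshold. Nfkb2 (ENSMUSG00000025225, chromosome 19, 46304320 to 46312385) encodes the precursor of p52, the subunit of the non-canonical arm. Its levels were 325, 304, 300, 297, 222, 233 and 276 CPM in deficient libraries 1 to 7 and 123, 138 and 145 CPM in regular libraries. The groups were well separated, and within the deficient group libraries 5 to 7 were the lowest. Its rise of 0.95 log2 units (SE 0.124; edgeR, adjusted p = 4.54e-05) kept its direction and passed under each of 25 alternatives, at 0.75 to 1.14. Nfkb2 shares exon sequence with the opposite-strand gene Psd, which stood at 0.24 to 0.606 CPM in deficient and 0.172 to 0.619 CPM in regular libraries. The opposite-strand gene AC114539.1 also overlaps Nfkb2, and its level was not examined.

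Rel (ENSMUSG00000020275, chromosome 11, 23736847 to 23770970), the subunit most closely tied to T cell activation, ranged from 56.9 to 76.8 CPM in deficient libraries with a median of 67.7 CPM, and read 73.8, 86.3 and 83.9 CPM in regular libraries. Only deficient library 4 lay above the lowest regular library. Rel fell, with a log2 difference of -0.39 ± 0.0878 (SE; edgeR adjusted p = 0.00144). Relb (ENSMUSG00000002983, chromosome 7, 19606217 to 19629438), the partner of the Nfkb2 product, had 71.1, 55.1, 52.6, 56.6, 43.4, 43.6 and 48.8 CPM in deficient libraries 1 to 7 and 72.6, 76 and 69.6 CPM in regular libraries. Only deficient library 1 reached the regular range. Its log2 fold change was -0.55 (SE 0.125; edgeR, adjusted p = 0.00216). Rela, which encodes the p65 subunit of the classical dimer, stood at 15.4, 12.1, 13.4, 13.4, 15.1, 18.1 and 19.1 CPM in deficient and 12.9, 13.3 and 12.4 CPM in regular libraries. The values overlapped, and the difference of 0.16 did not pass (SE 0.135; edgeR, adjusted p = 0.333). Deficient libraries 6 and 7, those of batch 2, were the highest; within batch 2 Rela passed at 0.52, and within batch 1 the value was -0.01.

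**Figure D2:**
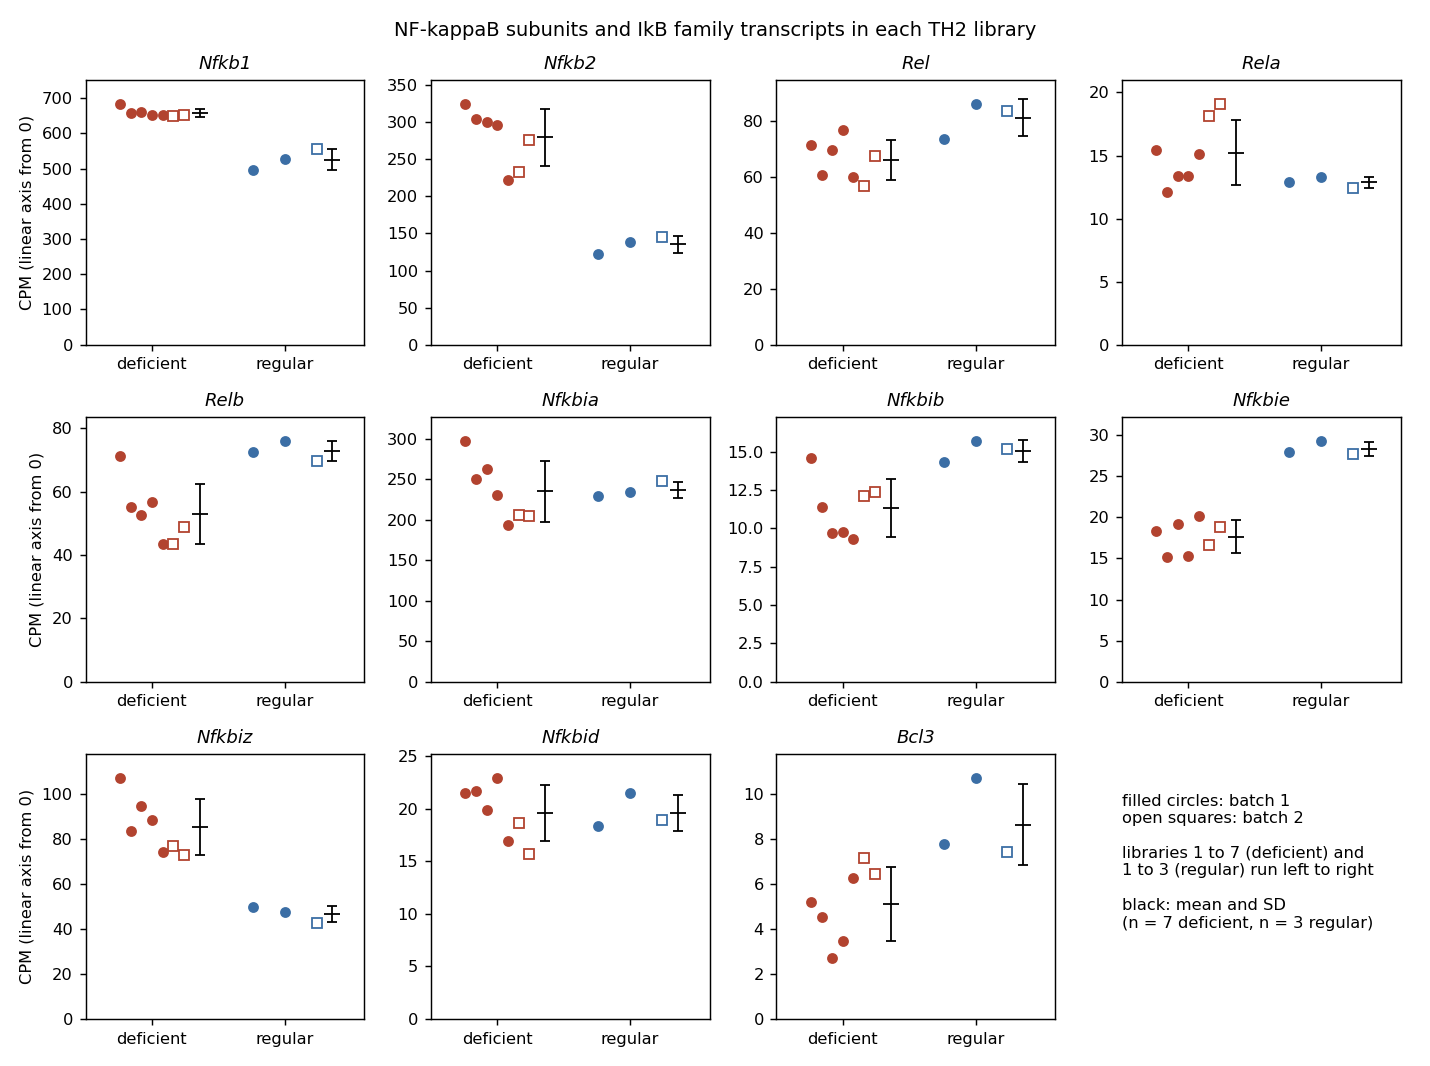
Each panel plots CPM on a linear axis from 0 for 1 subunit or IkB gene, deficient libraries left of regular ones; filled circles are batch 1, open squares batch 2, and black bars the mean with SD (n = 7 and n = 3). Nfkb1, Nfkb2 and Nfkbiz lie higher in all 7 deficient libraries, Nfkbie and Bcl3 lie lower in all 7, and Rela, Nfkbia and Nfkbid overlap.

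The partners of the non-canonical dimer thus went opposite ways, and among deficient libraries their ratio varied less than either gene. Nfkb2 over Relb, as a ratio of CPM, was 5.31 ± 0.39 in deficient libraries (SD, n = 7; 4.57 to 5.7) and 1.86 ± 0.195 in regular libraries (SD, n = 3; 1.7 to 2.08). Deficient libraries 5 to 7, which were low in both genes, gave 5.11, 5.33 and 5.66, inside the range of libraries 1 to 4. The ratio of Nfkb2 to Nfkb1 was 0.424 ± 0.0537 in deficient and 0.257 ± 0.00802 in regular libraries (SD, n = 7 and 3). Both ratios describe members chosen with results known and were not tested. Per kb of annotated exon, Nfkb2 averaged 61 CPM per kb in deficient cells and 29.5 in regular cells, and Nfkb1 averaged 54.6 and 43.6. In deficient libraries these 2 subunits overlapped on that scale, at 48.3 to 70.9 CPM per kb for Nfkb2 and 53.8 to 56.7 for Nfkb1, whereas in regular libraries Nfkb1 was above Nfkb2 without overlap. Below them in deficient cells came Relb at 13.6, Rel at 8.86 and Rela at 4.96 CPM per kb, with no overlap between neighbours; the regular means were 18.7, 10.9 and 4.19. Dividing by the longest transcript in place of all exons put Nfkb1 above Nfkb2 in both groups, with Nfkb1 at 159 CPM per kb in deficient and 127 in regular cells.

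**Figure D3:**
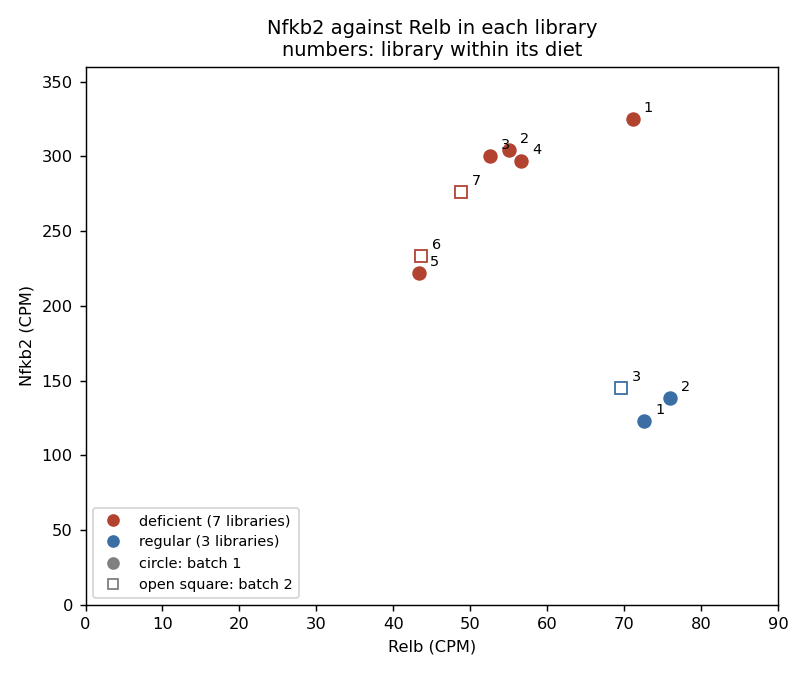
Each point is 1 library, with Relb on the horizontal and Nfkb2 on the vertical axis in CPM, both from 0; numbers give the library within its diet, circles batch 1 and open squares batch 2. The 7 deficient libraries lie along a line steeper than the 3 regular libraries, at ratios of 4.57 to 5.7 against 1.7 to 2.08.

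Of the 3 classical IkB genes, whose proteins hold NF-kappaB dimers in the cytoplasm, 2 fell and 1 did not pass. Nfkbie (ENSMUSG00000023947, chromosome 17, 45555703 to 45563169) ranged from 15.2 to 20.2 CPM in deficient libraries, median 18.3 CPM, against 27.9, 29.3 and 27.7 CPM in regular libraries. The groups did not overlap, and the fitted change was -0.77 log2 units (SE 0.112; edgeR, adjusted p = 3.12e-05). Nfkbib, at 9.3 to 14.6 CPM in deficient and 14.3 to 15.7 CPM in regular libraries, fell by 0.49 (SE 0.153; edgeR, adjusted p = 0.013). Its call was lost without regular library 2 (-0.44) and within batch 2 (-0.37). Part of its exon sequence lies opposite Sirt2, which stood at 41.6 to 50 CPM in deficient and 39.9 to 45.2 CPM in regular libraries, so Nfkbib is uncertain.

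Nfkbia (ENSMUSG00000021025, chromosome 12, 55489410 to 55492647), the rapidly induced inhibitor that closes the feedback loop, had 297, 250, 262, 230, 193, 206 and 205 CPM in deficient libraries 1 to 7 and 229, 234 and 248 CPM in regular libraries. Deficient libraries 1 to 3 lay above all regular libraries and libraries 5 to 7 below them. Over all libraries the difference was -0.11 and did not pass (SE 0.123; edgeR, adjusted p = 0.464). It passed within batch 2 at -0.33 and without deficient libraries 1 and 3 at -0.21. By level per kb of exon Nfkbia was the most abundant of the 31 genes in both groups, at 146 CPM per kb in deficient and 147 in regular cells; per kb of the longest transcript, Nfkb1 was above it in deficient cells, at 159 against 149 CPM per kb.

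The nuclear IkB proteins act on chromatin-bound NF-kappaB, and their genes split 3 ways. Nfkbiz (ENSMUSG00000035356, chromosome 16, 55811375 to 55838899), whose product cooperates with p50 dimers at secondary response genes, stood at 107, 83.7, 94.6, 88.4, 74.1, 77 and 72.8 CPM in deficient libraries 1 to 7 and at 49.6, 47.5 and 42.6 CPM in regular libraries. All 7 deficient libraries were above all 3 regular ones, and the log2 fold change was 0.78 (SE 0.104; edgeR, adjusted p = 1.64e-05). Bcl3 (ENSMUSG00000053175, chromosome 7, 19808462 to 19822770), a partner of p50 and p52 homodimers, read 5.18, 4.55, 2.7, 3.44, 6.25, 7.15 and 6.45 CPM in deficient and 7.76, 10.7 and 7.43 CPM in regular libraries. It is the member with the fewest reads, down to 19 counts in deficient library 3. The difference of -0.84 in log2 units (SE 0.248; edgeR, adjusted p = 0.00956) missed the threshold without regular library 2 (-0.58) and within batch 2 (-0.18). Nfkbid, which in mice takes part in the induction of Il2 and Foxp3, ranged from 15.7 to 22.9 CPM in deficient and 18.3 to 21.5 CPM in regular libraries and did not pass (-0.09, adjusted p = 0.51, edgeR).

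In the IKK family, Ikbkg and Chuk rose and Ikbkb and Ikbke fell. Ikbkb, the catalytic IKKbeta of the canonical arm, fell by 0.49 log2 units, at 34.8 to 45.5 CPM in deficient and 49.8 to 54.5 CPM in regular libraries (SE 0.0884; edgeR, adjusted p = 0.000234). Ikbkg, the regulatory subunit NEMO, rose by 0.44, at 57.4 to 83.1 CPM in deficient and 49.2 to 54.6 CPM in regular libraries (SE 0.0933; edgeR, adjusted p = 0.000918). It overlaps the opposite-strand gene G6pdx, which stood at 45.1 to 55.5 CPM in deficient and 27.3 to 31.7 CPM in regular libraries, and the part of those reads in Ikbkg was not tested. Ikbkb and Ikbkg kept their calls under each of the 25 alternatives. Chuk, which encodes IKKalpha and serves both arms, rose by 0.26, at 155 to 214 CPM in deficient and 148 to 156 CPM in regular libraries (SE 0.083; edgeR, adjusted p = 0.0141). That call was lost without regular library 3 (0.21), within batch 1 (0.21) and without deficient libraries 5 to 7 (0.17). Ikbke (ENSMUSG00000042349, chromosome 1, 131254343 to 131279606), which encodes an inducible IKK-related kinase of interferon responses, ranged from 85.4 to 122 CPM in deficient libraries, median 102 CPM, against 171, 204 and 198 CPM in regular libraries. It fell by 0.98 (SE 0.0902; edgeR, adjusted p = 3.59e-07), and no deficient library reached the regular range.

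Upstream kinases were lower or did not pass. Map3k14, which encodes the NIK kinase of the non-canonical arm, stood at 18.2, 13.3, 16.9, 15.9, 20.8, 19.1 and 20.3 CPM in deficient and 23.3, 22.1 and 19.8 CPM in regular libraries. It fell by 0.37 (SE 0.137; edgeR, adjusted p = 0.0294), with the call lost under 9 of 25 alternatives, among them batch 2 alone (-0.07), without regular library 1 (-0.28) or 2 (-0.35) and without deficient library 3 (-0.35) or 4 (-0.34). In the TAK1 complex, which activates IKK, the kinase gene Map3k7 fell by 0.19 (adjusted p = 0.0413, edgeR) and lost its call under 18 of 25 alternatives, which ranged from -0.24 to -0.08. The libraries that ended its call when left out were regular 1 (-0.10) and deficient 1 (-0.15), 2 (-0.18), 3 (-0.17), 6 (-0.19) and 7 (-0.19). Tab1, its activator subunit, fell by 0.38, at 19.4 to 27.5 CPM in deficient and 27.1 to 31.5 CPM in regular libraries (adjusted p = 0.0101, edgeR), and missed the threshold without regular library 1 (-0.31) or 3 (-0.33), within batch 1 (-0.33) and without deficient libraries 5 to 7 (-0.25). Tab2, the adaptor that reads ubiquitin chains, had a difference of -0.06 (adjusted p = 0.488, edgeR).

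Among receptor-proximal adaptors 1 of 9 rose, 5 fell and 3 did not pass. Traf5 (ENSMUSG00000026637, chromosome 1, 191997205 to 192092559) stood at 9.5, 10, 9.82, 10.9, 8.58, 7.97 and 8.21 CPM in deficient libraries 1 to 7 and at 24.8, 25.2 and 27.7 CPM in regular libraries. The highest deficient library, at 10.9 CPM, was far below the lowest regular one, at 24.8 CPM. The log2 fold change was -1.58 (SE 0.112; edgeR, adjusted p = 1.7e-08), and over 25 alternatives it lay between -1.84 and -1.40. Traf6, the E3 ligase of antigen and IL-1 receptor signals, fell by 0.33, at 86.2 to 102 CPM in deficient and 110 to 112 CPM in regular libraries (SE 0.0601; edgeR, adjusted p = 0.000243). Traf3, a brake on NIK, fell by 0.21 (adjusted p = 0.0353, edgeR) and lost its call under 14 of 25 alternatives, which ranged from -0.25 to -0.10. Leaving out any 1 of the 3 regular libraries (-0.20, -0.20 and -0.23 without libraries 1, 2 and 3) or deficient library 2 (-0.21), 3 (-0.18), 4 (-0.21) or 7 (-0.18) was enough. Traf1, an NF-kappaB-induced adaptor, read 191, 150, 134, 131, 190, 195 and 186 CPM in deficient and 142, 143 and 149 CPM in regular libraries. It did not pass (0.13, adjusted p = 0.423, edgeR). With no count filter Traf1 passed at 0.24. Its difference was 0.29 within batch 2 and -0.0032 without deficient libraries 5 to 7. Traf2 stood at 42 to 47.8 CPM in deficient and 30.3 to 41.5 CPM in regular libraries. Its groups did not overlap in CPM, but on TMM-scaled counts the difference was 0.19 and did not pass (SE 0.0877; edgeR, adjusted p = 0.0709). It passed on total counts alone at 0.28 and without deficient libraries 5 to 7 at 0.28.

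The cIAP genes lie next to each other on chromosome 9 and encode ubiquitin ligases that keep NIK low. Birc3 (7848699 to 7873186) ranged from 102 to 124 CPM in deficient and 149 to 165 CPM in regular libraries, a log2 fold change of -0.63 (edgeR SE 0.0625, adjusted p = 5.72e-07). The groups did not overlap, and deficient libraries 1 to 4 and 5 to 7 shared 1 range. Birc2 (7818227 to 7837064) differed inside the deficient group: 94.1, 102, 114 and 115 CPM in libraries 1 to 4, and 172, 161 and 161 CPM in libraries 5 to 7, against 170, 163 and 173 CPM in regular libraries. The log2 difference, -0.45 (SE 0.169; edgeR, adjusted p = 0.0458) lost its call under 16 of 25 alternatives. Left out singly, regular 1 (-0.36) or 2 (-0.43) or deficient 1 (-0.40), 2 (-0.41), 3 (-0.42), 4 (-0.42), 6 (-0.47) or 7 (-0.47) ended it. Without deficient libraries 5 to 7 it was -0.74 (adjusted p = 8.9e-08, edgeR). Summed CD8 and cytotoxic markers were 1490 to 1958 CPM in deficient libraries 5 to 7 and 687 to 1040 CPM in libraries 1 to 4, and their part in Birc2 was not tested.

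Cflar, which encodes the caspase inhibitor cFLIP, an NF-kappaB-dependent survival factor, was the adaptor gene that rose. It stood at 216 to 238 CPM in deficient and 152 to 162 CPM in regular libraries, a rise of 0.44 log2 units (SE 0.0571; edgeR, adjusted p = 9.7e-06). Ripk1, the kinase scaffold of TNF receptor signals, ranged from 42.7 to 56.3 CPM in deficient and 46.9 to 48.7 CPM in regular libraries and did not pass (-0.07, adjusted p = 0.54, edgeR). It partly overlaps the opposite-strand gene Serpinb6a, at 69.9 to 90.2 CPM in deficient and 109 to 119 CPM in regular libraries.

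**Figure D4:**
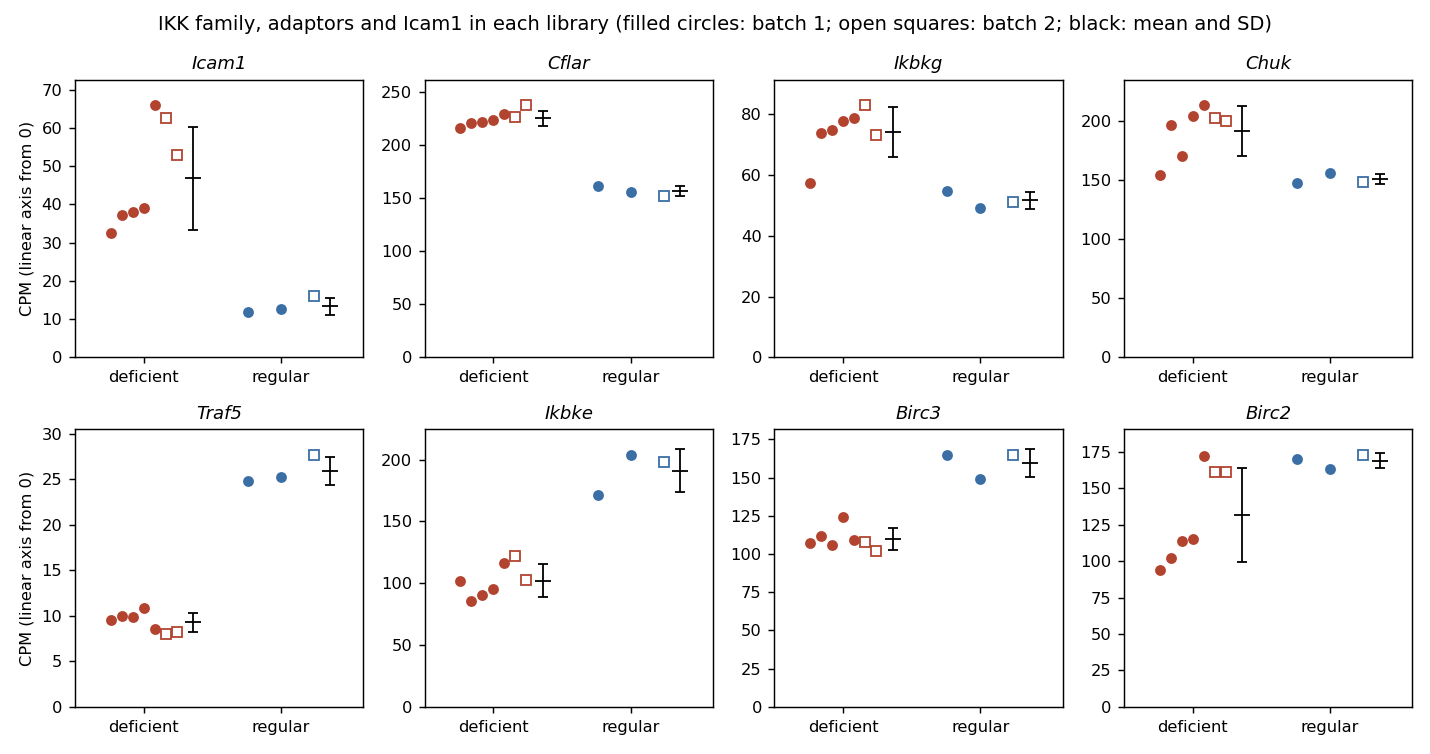
Panels plot CPM on linear axes from 0 for 8 members, deficient left of regular; filled circles are batch 1, open squares batch 2 and black bars the mean with SD (n = 7 and n = 3). Traf5, Ikbke and Birc3 lie lower in all 7 deficient libraries and Icam1, Cflar and Ikbkg higher. Birc2 is low in deficient libraries 1 to 4. In libraries 5 to 7 it reads 172, 161 and 161 CPM, against 163 to 173 CPM in regular libraries.

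The feedback genes Tnfaip3 and Tnip1 encode a deubiquitinase that limits NF-kappaB signals and its ubiquitin-binding partner. Tnfaip3 stood at 141, 145, 146, 134, 242, 219 and 208 CPM in deficient libraries 1 to 7 and at 180, 159 and 165 CPM in regular libraries. Libraries 1 to 4 were all below the regular range and libraries 5 to 7 all above it, and over the whole group the difference was -0.02 (SE 0.199; edgeR, adjusted p = 0.945). Without deficient libraries 5 to 7 it passed at -0.35 (adjusted p = 0.00105), and within batch 2 it passed at 0.31 (adjusted p = 0.00413); over the alternatives the adjusted p ran from 0.00105 to 0.988. CD8 and cytotoxic markers summed to 1490 to 1958 CPM in libraries 5 to 7, and their part in this split was not tested. Tnip1 fell by 0.38, at 32.1 to 46.5 CPM in deficient and 38.4 to 49.4 CPM in regular libraries (SE 0.117; edgeR, adjusted p = 0.0124), and missed the threshold without regular library 1 (-0.35) or 2 (-0.34) and within batch 2 (-0.21).

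Icam1 (ENSMUSG00000037405, chromosome 9, 21015985 to 21028817) showed the largest rise among the members. It read 32.5, 37.1, 38, 39.1, 66, 62.5 and 52.8 CPM in deficient libraries 1 to 7 and 11.7, 12.5 and 15.9 CPM in regular libraries. The lowest deficient library was above the highest regular one by more than 2-fold, and libraries 5 to 7 were the highest. The log2 fold change was 1.74 (SE 0.24; edgeR, adjusted p = 0.000149), and without libraries 5 to 7 it was 1.5. B cell markers, and likewise CD8 and cytotoxic markers, were highest in the same 3 libraries, and their part in that step was not tested. Icam1 overlaps the opposite-strand RNA gene Gm47079, which stood at 0.309 to 1.99 CPM in deficient and 0.69 to 1.92 CPM in regular libraries.

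Set side by side, the arms did not separate. Of 13 genes assigned to the canonical arm, 2 rose and 7 fell, with a median log2 fold change of -0.19. Of 8 assigned to the non-canonical arm, 2 rose and 5 fell, with a median of -0.29. As assigned, the genes that rose were Nfkb1 and Ikbkg in the canonical and Nfkb2 and Chuk in the non-canonical arm. Chuk serves both arms but was counted only in the non-canonical one, so these counts depend on that assignment. These medians stand beside 0.02 over all genes, of which 29.4% rose and 28.6% fell, and no test between the arms was made.

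The direction of the members was compared within batches. Within batch 1, 6 members were higher and 12 lower, where 24.7% of all genes were higher and 23.6% lower. Within batch 2, whose single regular library was given the variation of the deficient libraries, 9 were higher and 10 lower, where 23.5% and 23.4% of all genes were. Without deficient libraries 5 to 7, 7 members were higher and 15 lower, where 28.5% and 27.9% of all genes were and 56.4% passed in either direction. Leaving out deficient libraries 1 and 3, which had high Xist, gave 7 members higher and 14 lower. The counts over all genes were slightly smaller in each direction than with all 10 libraries, so calls were common under this setting too. The part of sex in the diet differences was not otherwise tested. A fit with the product of diet and batch called 0 of the 31 members and 0% of all genes (edgeR); at an unadjusted p under 0.05 it gave 0 members and 4.12% of genes, while DESeq2 gave 0% adjusted and 2.02% unadjusted over all genes and limma-voom 0% and 2.74%. The absence of calls for the product rested on deficient library 5. Without it, 1.19% of all genes (12.6% unadjusted) and 2 members passed, Tnfaip3 at 0.67 (adjusted p = 0.0174, edgeR) and Birc2 at 0.58 (adjusted p = 0.036, edgeR), both with a diet difference higher in batch 2 than in batch 1. Library 5 carries the label of batch 1 but resembled deficient libraries 6 and 7, with Tnfaip3 at 242 CPM and Birc2 at 172 CPM. With it left out, the split of deficient libraries 1 to 4 from 6 and 7 coincides with batch. The fit without library 5 therefore cannot tell a batch effect from that split. The batch term called 0 members and 0% of all genes after adjustment. At an unadjusted p under 0.05 it gave 2 members and 7.58% of all genes (edgeR).

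**Figure D5:**
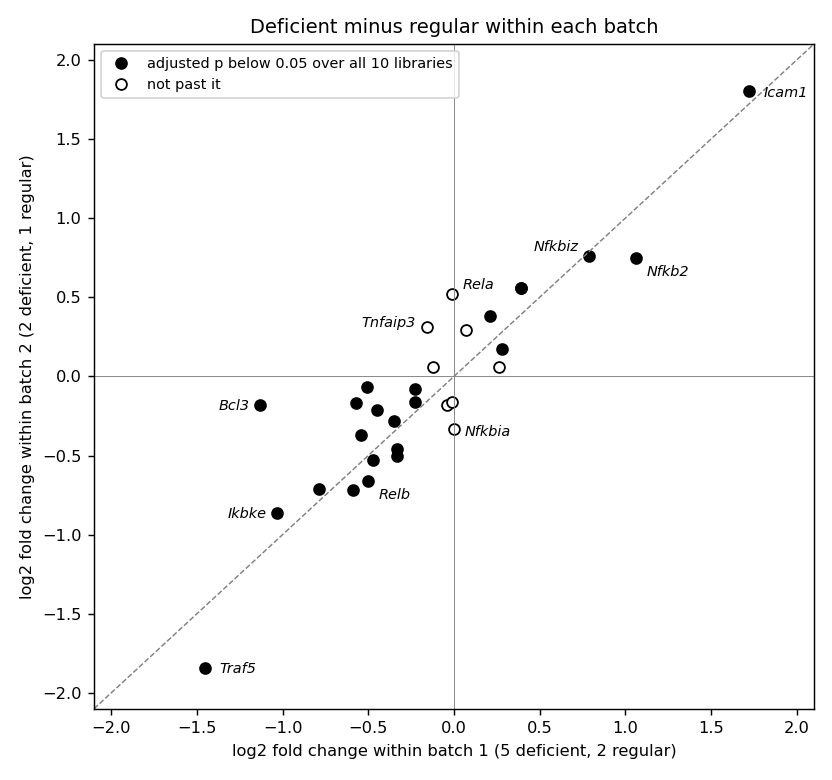
Each point is 1 of the 31 genes, with its log2 fold change (deficient minus regular) within batch 1 on the horizontal and within batch 2 on the vertical axis; the dashed line marks equal values, and filled points passed over all 10 libraries. Icam1 (1.72 and 1.80), Nfkb2 (1.06 and 0.75) and Traf5 (-1.45 and -1.84) have the same sign in both batches, while Bcl3 (-1.13 and -0.18), Rela (-0.01 and 0.52) and Tnfaip3 (-0.16 and 0.31) lie off the line.

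The surroundings of the pathway were described with 3 further lists. Among 48 further regulators and signalling parts, 47 were tested, 14 rose and 17 fell, with a median log2 fold change of 0.04. Beside these counts, 29.4% of all genes tested rose and 28.6% fell. Malt1, which encodes a paracaspase, fell, at 191 ± 23.5 CPM in deficient and 494 ± 26.5 CPM in regular cells (log2 -1.47, adjusted p = 2.08e-10, edgeR). Prkcq, which encodes protein kinase C theta, also fell, at 116 ± 10.4 CPM in deficient and 208 ± 19.1 CPM in regular cells (SD, n = 7 and 3; -0.91), as did Copb2 (-1.04), a coat protein gene. Tbkbp1, an adaptor of the kinase TBK1, rose to 15.4 ± 3.82 CPM in deficient cells, against 0.47 ± 0.464 CPM and 9 counts in all in regular cells (4.92), and Commd1, which promotes removal of Rela, by 1.22 and Rc3h1, a repressor of T cell mRNAs, by 0.55.

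Of 32 receptors and ligands that feed the pathway, 30 were tested, 9 rose and 11 fell, with a median of 0.22. The shares over all genes tested were again 29.4% rising and 28.6% falling. Tnfsf4, which encodes OX40 ligand, stood at 40.6 ± 7.26 CPM in deficient and 4.3 ± 1.19 CPM in regular cells (log2 3.16, adjusted p = 1.49e-07, edgeR). Lta, which encodes lymphotoxin alpha, rose by 1.71 and Tlr2 by 2.14. Tnfrsf18, the co-stimulatory receptor GITR, fell to 360 ± 16.4 CPM in deficient cells, against 690 ± 32.3 CPM in regular cells (-1.02, adjusted p = 2.64e-10, edgeR); the ligand gene Tnfsf14 fell by 1.48 and Cd28 by 0.92. Of 53 genes known as NF-kappaB targets, Nfkbia among them, 50 were tested, 25 rose and 6 fell, with a median of 0.51, beside 29.4% rising and 28.6% falling over all genes. Csf2, which encodes GM-CSF, stood at 165 ± 24.4 CPM in deficient and 7.17 ± 1.78 CPM in regular cells (4.46, adjusted p = 2.49e-12, edgeR), Ccnd2, a cell cycle cyclin, rose by 1.37, and Ccl3, a chemokine with 4 counts in all in regular cells, by 6.60. Those that fell included Tnfrsf1b (-1.10), which encodes TNF receptor 2, Ier3 (-0.85) and Cd44 (-0.56). Ccl3 is also made by cytotoxic cells, whose summed markers were 687 to 1958 CPM in deficient and 98.8 to 200 CPM in regular libraries, and their part in these counts was not tested.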

How the data were processed

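Libraries were stranded total RNA (TruSeq, globin kit) per the labels' protocols. The authors deposited whole-number counts of reads for each Ensembl ID in 10 libraries; the submitters' processing notes name STAR 2.7.10a, HTSeq 0.13.5 and GRCm38. Neither the annotation release nor how HTSeq treated strand is stated in those sources, so values of genes overlapping on opposite strands are uncertain. Reads of unspliced RNA may be counted too.

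Diet and batch come from the labels; libraries are numbered by accession within a diet, which pairs none of them. Sampling noise did not account for the difference in any of 24 replicate pairs (chi-square per gene 2.66 to 44.7), so none was treated as a library deposited again. IDs were matched to GENCODE M21 (49412 of 49671). Counts were fitted in R 4.3.3 with edgeR 4.0.16 (filterByExpr with a minimum count of 10, TMM, robust glmQLFit, glmQLFTest, diet and batch as terms, all 10 libraries, Benjamini-Hochberg over 13699 genes, threshold 0.05). CPM use plain library totals, whereas fold changes use TMM factors, which ran from 0.994 to 1.06 in deficient and 0.942 to 0.971 in regular libraries. The biological coefficient of variation (common dispersion) came to 12.7%. Levels per kb use the union of annotated exons.

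The members, gene lists, marker lists, tests and alternatives were chosen with earlier results of these data known. All members are named. From each further list, up to 3 genes of smallest adjusted p per direction with a mean of at least 1 CPM are named. On simulated counts for deficient against regular (13288 genes), the fit called 30 of the 58 genes given a 1.5-fold change. It called 53 of 67 at 2-fold and 64 of 64 at 4-fold, and 4 of its 151 calls were false. The simulation used the common dispersion for every gene, no batch effect and no split among deficient libraries. It changed far fewer genes than the 58.0% called in the data, so these rates need not hold there.

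Alternatives were other scalings, no filter or a stricter one (50 counts), DESeq2 1.42.0, limma-voom (limma 3.58.1), non-robust estimation, no batch term, each batch alone, each library left out in turn, removal of deficient libraries 5 to 7 or 1 and 3, thinning to 5800698 counts, counts without small, ribosomal, mitochondrial or haemoglobin RNA, an adjusted p of 0.01, members sharing no 50-base stretch with another gene, and the longest transcript as gene length. Those for marker sums and for the product of diet and batch were added after seeing the data. Promoters are from RefSeq (GRCm38.p6). Figures were drawn with matplotlib 3.10.9.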

Additional observations from a re-analysis of the deposited data

Results flagged for a closer look

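Among the 31 members, the deficient libraries were searched for a library far from the other 6; chance alone gives about 1 in 20 groups such a library, and 2 of 31 genes showed it. Nfkb1 read 684 CPM in deficient library 1, where the next deficient library had 662 CPM. Ikbkg read 57.4 CPM in deficient library 1, where the next had 73.3 CPM; that library still lay above the regular range of 49.2 to 54.6 CPM. Ikbkg lies on the X chromosome, and Xist, an RNA of the silenced X of female cells, gave 657 CPM in deficient library 1, 733 CPM in library 3 and at most 0.345 CPM elsewhere. Deficient library 3 had 74.8 CPM of Ikbkg, inside the range of the other deficient libraries, and the log2 fold change of Ikbkg was 0.50 without libraries 1 and 3.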

How the results depend on the processing

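Under the 25 alternatives run for each member, 13 members that passed kept their call and direction in all of them (Nfkb2, Rel, Relb, Nfkbie, Nfkbiz, Traf5, Traf6, Birc3, Ikbkb, Ikbkg, Ikbke, Cflar and Icam1), 10 lost the call in at least 1, and none of those 23 changed direction. The count of members higher was 1 among the members without a 50-base stretch found in other genes, where the count lower was 5. That smaller set held Nfkbiz, which was higher, and Nfkbie, Tnip1, Traf3, Traf6 and Tab1, which were lower. It also held Rela, Nfkbia, Nfkbid and Tnfaip3, which did not pass. The count lower was 9 at an adjusted p below 0.01 and 10 within batch 2, and leaving out each library in turn gave 10 to 16 lower, with 10 without regular library 1 and 10 without regular library 2. The product of diet and batch gave 2 members and 156 genes without deficient library 5, 0 to 2 members and 0 to 156 genes over the libraries left out in turn, and 4 genes with no count filter; the cause was not tested. It could not be fitted without regular library 3 or in single batches.

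Of the 8 members that did not pass, 7 turned direction under some setting. Without deficient libraries 5 to 7, Rela was -0.04, Nfkbia 0.08, Nfkbid 0.03, Traf1 -0.0032 and Tab2 0.04. With no count filter, Nfkbid was 0.02, Tnfaip3 0.09, Tab2 0.04 and Ripk1 0.04. On total counts only, Tnfaip3 was 0.07, Tab2 0.02 and Ripk1 0.02, and with upper quartile scaling Tnfaip3 was 0.0041. Within batch 1 Rela was -0.01; within batch 2 Tnfaip3 was 0.31 and Ripk1 0.06. Rela was -0.01 without regular library 3, within a range of -0.01 to 0.23 over the libraries left out in turn. Tnfaip3 was 0.11 without regular library 1, 0.02, 0.01, 0.02 and 0.04 without deficient libraries 1, 2, 3 and 4, and 0.07 without libraries 1 and 3; over single libraries left out it ran from -0.16 to 0.11. The cause was not tested.

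With the longest transcript as length, Nfkb1 was 159 and 127 CPM per kb in deficient and regular cells, Nfkb2 72.7 and 35.2, and Relb 16.2 and 22.2, and Rela was 4.74 in regular cells. No paired analysis was possible because the labels give no replicate numbers and accession order pairs nothing. The 3 regular libraries and their lower depth limit the precision, most for Bcl3 with 19 to 96 counts per library.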
